A study of Mus musculus with 13 samples.

Results

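TRAJ21 and TRAJ31 are joining (J) gene segments of the T cell receptor (TCR) α locus, and the rearrangements that used them were followed in the α chains of redeemed regulatory T (Treg) cells. All rows with either J gene in the deposited clonotype tables were taken, which gave 9600 of 90369 clonotypes in 13 samples. A clonotype was 1 row of a table, a distinct CDR3 nucleotide sequence with its V and J genes, and CDR3 is the hypervariable loop formed where V and J meet. TRAJ21 had 4812 clonotypes, of which 4271 were functional, 528 were out of frame and 13 were in frame with a stop codon. TRAJ31 had 4788, of which 4248 were functional, 524 were out of frame and 16 held a stop codon. A clonotype was called functional when its CDR3 translated without a stop or frameshift, and out of frame when its CDR3 length was not a multiple of 3. The genes were chosen by their share of functional clonotypes in these data, which is high. The level of that share is therefore given as a description with no test, and only its change over time was tested.

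The cells came from male C57BL/6 mice of the genotype Foxp3LSL/yCd4creERT2, in which a removable stop cassette silences Foxp3, the factor that Treg cells depend on, and in which a tamoxifen-inducible Cre is expressed from the Cd4 locus. All mice had received 4-hydroxytamoxifen once on postnatal day 14, and there was no untreated group, so every comparison was between time points or between the genes. Rescued Treg cells were sorted from pooled spleen and lymph nodes 1.5 months (n = 2, 8 weeks old), 3 months (n = 4, 3.5 months old), 5 months (n = 2, 5.5 months old) or 7 months (n = 5, 7.5 months old) later, so time after treatment and age cannot be told apart. Only TCRα transcripts were sequenced, so the sorted cell type could not be checked against its markers. The libraries held 509818 to 936831 counts in total, and the floor of 3 counts stood for 3.40e-04% to 6.29e-04% of functional counts. In bulk RNA, more cells of a clone and more TCRα RNA per cell cannot be told apart.

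An α chain is made when 1 of many V segments is cut and joined to 1 of many J segments, with bases trimmed from both ends and others inserted between them. The α locus can rearrange repeatedly, and later joins use V and J segments that lie further apart. An out-of-frame join makes no receptor, so it passes no selection on specificity. A functional join can have passed thymic selection as part of a receptor. The bases a J segment brings are fixed, so they set the end of the loop that contacts the peptide and the MHC molecule.

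Both segments are on the forward strand of chromosome 14 in GRCm38. TRAJ31 (ENSMUSG00000076898.1) spans chr14:54187895-54187951 and is segment 31 of 60 annotated in order, and TRAJ21 (ENSMUSG00000076908.1) spans chr14:54198790-54198846 and is segment 41, with 9 segments and 10895 bases from start to start between the members of the pair. The germline sequences, from the GENCODE annotation, are shown because most junctions below end in bases of these segments. Capitals mark the 26 bases that lie in the CDR3.
TRAJ21: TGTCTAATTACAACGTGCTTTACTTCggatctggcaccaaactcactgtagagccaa
TRAJ31: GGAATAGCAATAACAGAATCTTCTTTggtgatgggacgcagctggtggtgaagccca

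The capitals are equally long, and 12 of 26 bases are identical. The J label came from alignment to J genes, so a match of label and sequence is no independent check of it. Of functional TRAJ21 clonotypes, 98.8% ended in the last 9 of these bases (residues LYF) and 98.1% of TRAJ31 clonotypes in theirs (IFF). Among clonotypes of all other J genes 0% had the TRAJ21 end and 0.00135% had the TRAJ31 end.

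A single-base variant of TRAJ21 made up a large part of its clonotypes and touches most of what follows. In 1670 of 4271 functional TRAJ21 clonotypes (39.1%) the segment carried T16G, counted from the first base of the segment, which turns the valine codon GTG into the glycine codon GGG. The 2 forms are shown with the substituted base in capitals.
germline form: tgtctaattacaacgTgctttacttc
variant form: tgtctaattacaacgGgctttacttc

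The variant form was present in every sample, at 33.4% to 45.2% of functional TRAJ21 clonotypes. Its clonotypes were small, with a median of 6 counts against 58 for the germline form, and held 6.25% of the gene's functional counts. The next most common substitution in the last 15 bases reached 0.378% of TRAJ21 clonotypes, and the most common in TRAJ31, T26G, reached 0.832%. Of the 1670 variant clonotypes, 1513 (90.6%) had an otherwise identical germline-form clonotype in the same sample, with the same V family in 99.6% of pairs. In these pairs the variant was rarer in 1511, equal in 2 and more abundant in 0. The ratio of variant to germline counts ran from 0.0503 to 1 with a median of 0.0811, and the median per sample from 0.0737 to 0.0938. None of the 1513 ratios was under 0.05, the threshold of the frequency-based correction that the authors had already applied. The ratios therefore describe only pairs that had passed that threshold. The larger a germline-form clonotype, the more often it had a variant counterpart: 2.27% of those with 1 to 5 counts, 44.5% with 6 to 20, 68.0% with 21 to 100 and 82.0% above that. Counts are whole numbers, so at such ratios a small germline-form clonotype could rarely show a variant. The rise with size is therefore no separate result. The remaining 157 variant clonotypes had a median of 1 count. Out of frame the picture was similar, with 187 of 528 TRAJ21 clonotypes (35.4%) in the variant form and 155 of these beside a germline counterpart.

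**Figure D1:**
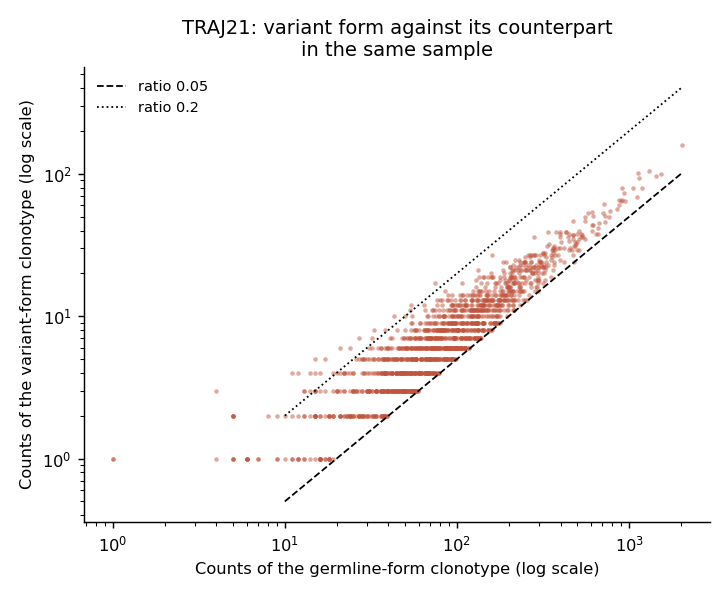
Counts of each variant-form TRAJ21 clonotype (y axis, log scale) against the otherwise identical germline-form clonotype of the same sample (x axis, log scale), for 1513 pairs in 13 samples. The points form a band just above the dashed line at a ratio of 0.05, with a median ratio of 0.0811, and few lie above the dotted line at 0.2.

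TRAJ21 was not alone in this. A neighbour 1 mismatch away and more than 5 times as large in the same sample was found for 39.3% of TRAJ21 clonotypes, and likewise for 40.3% with TRAJ15, 33.8% with TRAJ13 and 31.1% with TRAJ35, against a median of 4.76% over the 43 J genes with at least 100 functional clonotypes, among which all ranks of junction and clone measures below were taken. How the variant form came about was not tested. Results on TRAJ21 are given for all its clonotypes, and the main ones that the variant form moves are given without it as well.

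By clonotypes, the members of the pair were used alike. TRAJ21 took 5.43% ± 0.330 (SD, n = 13) of functional clonotypes and ranked 2 of 44 J genes, and TRAJ31 took 5.43% ± 0.2501 and ranked 3, behind TRAJ15 (5.70% ± 0.593). Per sample the shares ran from 4.81% through a median of 5.42% to 5.88% for TRAJ21, and from 5.00% through 5.37% to 5.92% for TRAJ31. These ranges overlap almost wholly. With the variant form left out, TRAJ21 fell to 3.38% ± 0.163 and rank 9 (3.11% to 3.67% per sample). TRAJ31 then stood at 5.54% ± 0.254 and rank 2 (5.10% to 6.05%), and the ranges were apart. When clonotypes with a larger 1-mismatch neighbour were left out for all J genes, TRAJ31 ranked 1 (5.63% ± 0.289) and TRAJ21 ranked 8 (3.70% ± 0.168).

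By counts the order was clear with or without the variant. TRAJ31 held 5.67% ± 0.708 (SD, n = 13) of functional counts and ranked 1 of 44, from 4.63% to 6.91% per sample. TRAJ21 held 3.35% ± 0.356 and ranked 9, from 2.68% to 3.82%. The highest TRAJ21 sample lay below the lowest TRAJ31 sample. Without the variant form TRAJ21 held 3.15% ± 0.331 and ranked 14.

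Among the 9 J genes with clonotypes that lie within 3 gene numbers of either, TRAJ23 (4.53% ± 0.281), TRAJ22 (4.01% ± 0.294) and TRAJ34 (3.14% ± 0.203) took the largest shares of functional clonotypes (SD, n = 13). TRAJ23 and TRAJ22 were thus below TRAJ21 by clonotypes, but above it once the variant form was left out, at 4.62% and 4.10% against 3.38%, and above it by counts, at 4.79% ± 0.616 and 4.81% ± 0.729 against 3.35%. TRAJ30 (2.80% of functional clonotypes), TRAJ32 (2.46%), TRAJ18 (2.22%), TRAJ33 (2.02%), TRAJ24 (1.02%) and TRAJ28 (0.711%) were lower, and no clonotype was assigned to TRAJ19, TRAJ20 or TRAJ29.

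Out-of-frame joins showed a similar ranking. TRAJ21 took 4.73% ± 0.926 (SD, n = 13) of all 11387 out-of-frame clonotypes and TRAJ31 4.59% ± 0.804, ranks 2 and 3 behind TRAJ32 (16.6% ± 2.48). Set beside their functional shares of 5.43%, both genes were thus frequent in joins that make no receptor as well, although TRAJ21 fell to rank 8 without the variant form. Between the genes the share differed by 0.139 ± 1.43 percentage points (SD of the difference, higher for TRAJ21 in 8 of 13 samples, exact sign-flip permutation p = 0.730, adjusted p = 0.832, two-sided). Without the variant form the order was the other way, 3.09% against 4.67%, lower for TRAJ21 in 12 of 13 samples (p = 7.32e-04, adjusted p = 0.00171, exact sign-flip permutation). Of each gene's own clonotypes, 11.2% ± 2.13 with TRAJ21 and 10.9% ± 1.85 with TRAJ31 were out of frame, a difference of 0.295 ± 3.19 points that did not pass the exact sign-flip test (adjusted p = 0.832; 0.7499 points and adjusted p = 0.457 without the variant form), and both were near the median of 10.9% over the 43 genes.

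**Figure D2:**
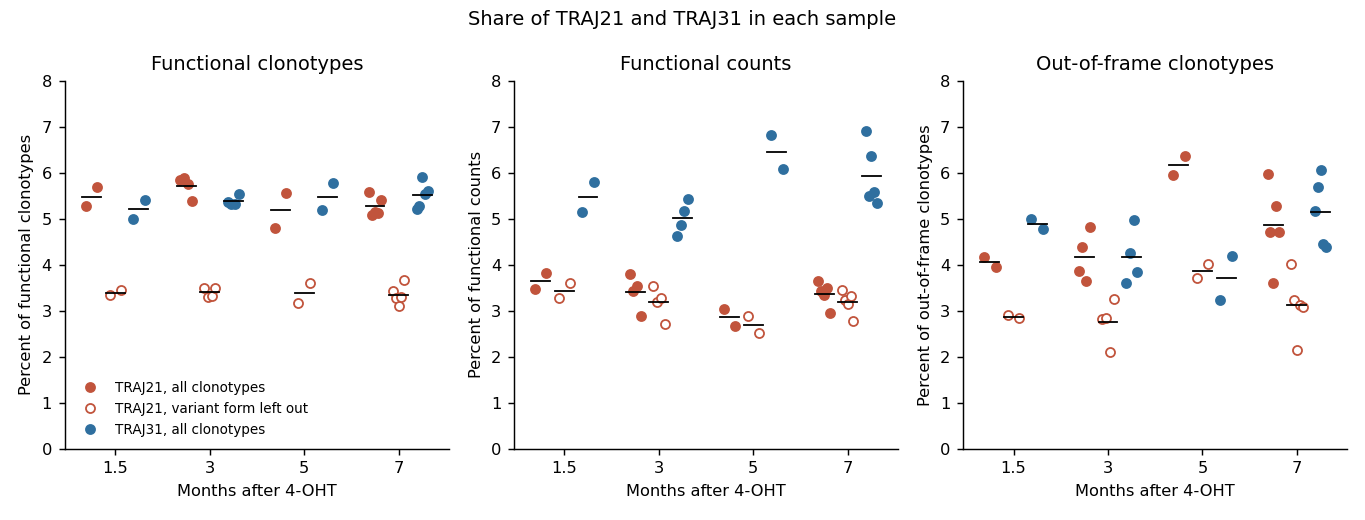
Percent of functional clonotypes, of functional counts and of out-of-frame clonotypes with TRAJ21 (red) and TRAJ31 (blue) in each sample, by months after 4-OHT. Points are samples, open points leave out the variant form of TRAJ21 and lines are group means. Filled red and blue points overlap at about 5.43% of clonotypes, whereas by counts all blue points (4.63% to 6.91%) lie above all red ones (2.68% to 3.82%).

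The V partners of both genes were spread over most of the locus. TRAJ21 was seen with 19 and TRAJ31 with 20 TRAV families, and the 5 leading families held 67.8% and 64.6% of their functional clonotypes. TRAV7 led in both, at 18.7% ± 2.84 (SD, n = 13) with TRAJ21 and 18.5% ± 1.74 with TRAJ31, followed by TRAV14 at 14.9% ± 3.43 and 16.6% ± 2.21. V families, rather than single V genes, were compared because the duplicated mouse TRAV genes are nearly identical and reads can be split between copies.

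Among the 10 V families tested, TRAV4 differed most between the genes. It made up 13.1% ± 1.87 (SD, n = 13) of TRAJ21 clonotypes, from 9.92% to 16.4% per sample, and 7.39% ± 0.894 of TRAJ31 clonotypes, from 5.41% to 9.09%. The ranges did not overlap, and TRAV4 was higher with TRAJ21 in 13 of 13 samples. The log2 ratio was 0.86 ± 0.11 (SE, edgeR quasi-likelihood test with the sample as a term, adjusted p = 2.26e-08). With J genes other than these, TRAV4 took 10.0% ± 0.669 of clonotypes, between both values. TRAV9 went the other way, at 5.12% ± 1.65 of TRAJ21 clonotypes (1.89% to 7.81%) and 8.19% ± 2.43 of TRAJ31 clonotypes (5.23% to 12.5%). It was lower with TRAJ21 in 13 of 13 samples, although the ranges overlapped, with a log2 ratio of -0.64 ± 0.14 (SE, edgeR, adjusted p = 2.36e-04). With the other J genes TRAV9 took 4.76% ± 0.668, close to its share with TRAJ21.

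These were the 2 calls among 10 families tested (20% of those tested). The other 8 had log2 ratios from -0.40 ± 0.21 (TRAV10) to 0.24 ± 0.12 (TRAV12), with adjusted p from 0.171 to 0.554 in edgeR. Without the variant form both calls stood among 9 families, at 0.80 ± 0.09 for TRAV4 and -0.55 ± 0.11 for TRAV9, with TRAV9 lower in 12 of 13 samples. The TRAV9 call did not pass when clonotypes with a larger 1-mismatch neighbour were left out for all genes (log2 ratio -0.39, adjusted p = 0.0589, edgeR) or on summed counts (-0.64, adjusted p = 0.392). Leaving out 5 months replicate 1 gave 4 calls and leaving out 5 months replicate 2 gave 3.

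At the ends of the V cluster the data were thin. V families nearest the J cluster (TRAV17 to TRAV21), which early rearrangements favour, made up 0.335% ± 0.450 (SD, n = 13) of TRAJ21 and 1.03% ± 0.802 of TRAJ31 clonotypes, higher with TRAJ31 in 9 of 13 samples and with TRAJ21 in 3 (exact sign-flip permutation p = 0.0264, adjusted p = 0.0461). The call was lost in 9 of the 13 fits that left out a sample, with adjusted p up to 0.0923. The most distant families (TRAV1 and TRAV2) made up 1.42% ± 1.18 and 1.32% ± 0.523, a difference of 0.0992 ± 1.37 percentage points (adjusted p = 0.832, exact sign-flip permutation).

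**Figure D3:**
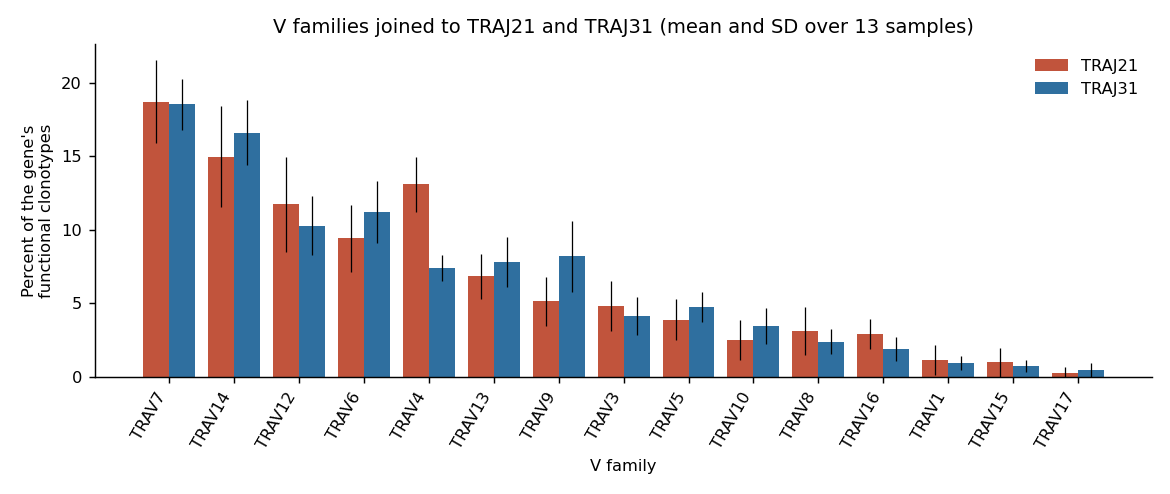
Percent of functional clonotypes of TRAJ21 (red) and TRAJ31 (blue) that used each of the 15 most frequent V families, as means with SD over 13 samples. TRAV4 stands at 13.1% with TRAJ21 and 7.39% with TRAJ31, TRAV9 at 5.12% and 8.19%, and the bars of the other families lie within each other's SD or close to it.

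How far each segment was trimmed separated the pair most clearly. TRAJ21 lost 1.23 ± 0.262 bases on average (SD, n = 13) and TRAJ31 2.99 ± 0.237. Per sample TRAJ21 ran from 0.675 through a median of 1.23 to 1.72 and TRAJ31 from 2.39 through 3.07 to 3.28, with no overlap. The difference of -1.76 ± 0.393 bases had the same sign in 13 of 13 samples (p = 2.44e-04, the smallest the exact sign-flip permutation test can give, adjusted p = 6.84e-04). Over 43 J genes, mean J bases kept ran from 23.01 for TRAJ31, the lowest, to 32.0, with TRAJ21 at rank 39 (24.8), though J segments bring different numbers of bases to the CDR3.

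The trimming had a different shape in each gene. In TRAJ31, 38.9% ± 3.42 of functional clonotypes had lost 4 to 6 bases, and 21 kept bases was the most common state (16.5% ± 2.18). In TRAJ21 that class held 11.9% ± 2.70, 1 to 3 lost bases held 40.2% ± 3.57 and 25 kept bases was the most common state (21.3% ± 2.89). The J boundary lay beyond the first base of the segment in 30.7% ± 3.59 of TRAJ21 and 13.9% ± 1.89 of TRAJ31 clonotypes. Such bases match the genome next to the segment or the palindromic (P) bases that hairpin opening can leave. These were looked for by sequence, whatever the assigned boundary, in clonotypes that held the first bases of the segment at their germline distance from the CDR3 end. Of these TRAJ21 clonotypes (36.9% of its functional ones), 72.0% had before the segment an A, the base complementary to its first, and 27.2% had both bases of the palindrome. Of those of TRAJ31 (20.1%), 47.9% had the complementary C and 27.2% both. How often V ends or insertions supply the same bases was not tested, so these percents do not count P bases. Counting a boundary beyond the first base as no trimming gave 1.88 and 3.28 bases and a difference of -1.40.

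The number of inserted bases was much alike. TRAJ21 had 2.14 ± 0.0835 inserted bases and TRAJ31 2.09 ± 0.129 (SD, n = 13), with per-sample ranges of 1.98 to 2.30 and 1.90 to 2.39. The difference of 0.0435 ± 0.135 did not pass the exact sign-flip permutation test (higher for TRAJ21 in 9 of 13 samples, p = 0.268, adjusted p = 0.417), nor did that of 0.0693 ± 0.128 without the variant form (adjusted p = 0.105). No base was inserted in 29.6% ± 2.21 of TRAJ21 and 29.5% ± 2.27 of TRAJ31 junctions, a difference of 0.158 ± 2.63 percentage points (adjusted p = 0.832, exact sign-flip permutation). This class includes junctions where V and J matched the same bases, 19.4% ± 2.49 of TRAJ21 and 17.7% ± 2.11 of TRAJ31 clonotypes. Those bases counted as kept by both V and J, so trimming can be understated there. Weighted by counts, TRAJ31 had fewer inserted bases, 1.85 against 2.08, and that difference of 0.222 passed (adjusted p = 0.00767, exact sign-flip permutation). On the V side TRAJ21 junctions kept 12.03 ± 0.233 bases and TRAJ31 junctions 12.56 ± 0.151, lower for TRAJ21 in 12 of 13 samples (difference -0.532 ± 0.225, adjusted p = 0.00114, exact sign-flip permutation). With both genes weighted to the same V families the difference was -0.520, lower in 13 of 13 samples.

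TRAJ31 gave the shortest CDR3s of all 43 J genes. Its mean was 12.4 ± 0.0647 residues (SD, n = 13), from 12.3 to 12.6 per sample, and that of TRAJ21, rank 39, was 12.8 ± 0.0983, from 12.62 to 12.95 per sample. TRAJ21 CDR3s were longer in 13 of 13 samples, by 0.385 ± 0.115 residues (adjusted p = 6.84e-04, exact sign-flip permutation). The most common length was 13 residues in both, 35.5% ± 4.84 of TRAJ21 and 42.1% ± 3.17 of TRAJ31 clonotypes. Loops of 14 or more residues made up 28.7% ± 3.52 with TRAJ21 and 12.1% ± 1.79 with TRAJ31.

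**Figure D4:**
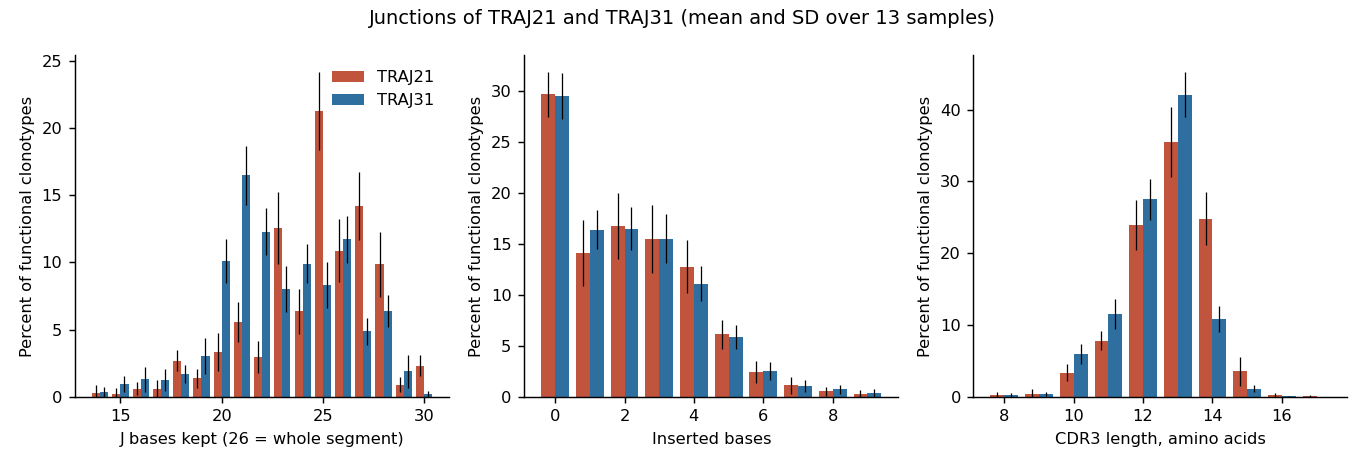
Distribution over functional clonotypes of J bases kept, inserted bases and CDR3 length for TRAJ21 (red) and TRAJ31 (blue), as percent of each gene's clonotypes, mean with SD over 13 samples. TRAJ31 has a peak at 21 kept bases where TRAJ21 peaks at 25, the inserted bases lie on each other (29.6% and 29.5% without any), and TRAJ21 has more loops of 14 residues.

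Many of these loops recurred between samples. The CDR3 amino-acid sequence was found in at least 1 other sample for 60.5% ± 2.90 (SD, n = 13) of TRAJ21 and 69.0% ± 2.57 of TRAJ31 clonotypes. TRAJ21 samples ran from 56.5% through 61.7% to 65.5% and TRAJ31 samples from 64.4% through 69.2% to 73.7%. TRAJ21 was lower in 13 of 13 samples with a difference of -8.48 ± 2.70 percentage points (adjusted p = 6.84e-04, exact sign-flip permutation). Without the variant form TRAJ21 stood at 64.5%, still lower in 13 of 13, and the difference was -4.45 ± 2.88. TRAJ21 then had 2601 functional clonotypes against 4248 with TRAJ31, and a smaller pool offers fewer matches. Sharing was not counted in pools of equal size, so what pool size adds to this difference was not tested. Because sharing is counted among these same samples, their values are not fully independent. Against the other J genes TRAJ31 ranked 2 of 43 and TRAJ21, variant form included, 19, with a median of 59.5% and a highest value of 69.1%. These ranks were not taken at equal clonotype numbers either.

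The library of 3 months replicate 4 overlapped more than others with 5 months replicate 1 and with 1.5 months replicate 1. In nucleotide sequence these pairs shared 4.75% and 4.55% of their TRAJ21 clonotypes (as a percent of the clonotypes in either) and 4.68% and 6.51% of their TRAJ31 clonotypes, against medians of 1.33% and 1.94% over the other 76 pairs and highest values of 2.33% and 3.57%. When sharing through these pairs was not counted, the shares were 58.8% and 67.5%, and TRAJ21 was lower in 13 of 13 samples.

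Sharing was most frequent in junctions with no inserted base and least where 4 or more were inserted. With no inserted base, 77.9% ± 4.37 of TRAJ21 and 79.5% ± 5.32 of TRAJ31 clonotypes (SD, n = 13) were shared. With 1 to 3 inserted bases it was 64.9% ± 5.24 and 72.5% ± 3.89, and with 4 or more 30.4% ± 6.64 and 47.5% ± 5.52. Without the variant form the TRAJ21 values were 81.0%, 69.2% and 35.9%, so the genes lay closest where nothing was inserted and furthest apart with 4 or more. Among loops of 13 residues 66.9% ± 3.31 of TRAJ21 and 73.7% ± 4.04 of TRAJ31 clonotypes were shared. Among those of 14 or more, 45.3% ± 5.31 and 49.2% ± 8.55 were. With the variant form left out, the TRAJ21 values were 70.7% ± 3.72 and 50.4% ± 6.61, the latter above that of TRAJ31. These strata were chosen after the data were seen and not tested, and their clonotype numbers were not made equal.

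**Figure D5:**
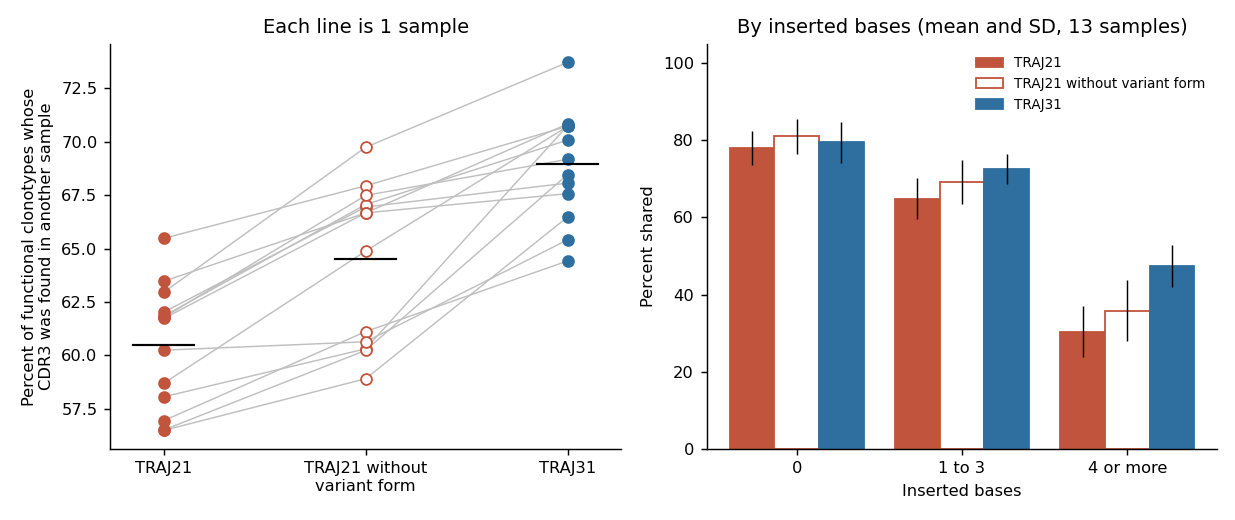
Left, percent of functional clonotypes whose CDR3 was found in another sample for TRAJ21, TRAJ21 without the variant form and TRAJ31, with 1 line per sample and group means as bars; the y axis does not start at 0. Right, the same percent by number of inserted bases, as mean with SD over 13 samples. In the left panel TRAJ21 lies below TRAJ31 in each of 13 samples. In the right panel the means at 4 or more inserted bases are 30.4%, 35.9% and 47.5%.

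Distinct loops numbered 2300 for TRAJ21 and 1917 for TRAJ31, and without the variant form TRAJ21 had the smaller number, 1333. Of these, 2 TRAJ21 loops, with or without the variant form, and 7 TRAJ31 loops were found in all 13 samples. The most widely found loops are shown with their most common nucleotide sequence, since they let the junction be read directly. Capitals mark the bases assigned to J.
TRAJ21 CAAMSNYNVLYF: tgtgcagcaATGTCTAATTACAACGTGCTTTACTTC
TRAJ21 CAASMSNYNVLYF: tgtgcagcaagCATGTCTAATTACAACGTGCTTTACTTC
TRAJ21 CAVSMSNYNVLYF: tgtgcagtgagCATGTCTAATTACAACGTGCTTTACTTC
TRAJ31 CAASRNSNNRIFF: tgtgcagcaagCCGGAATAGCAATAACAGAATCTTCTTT
TRAJ31 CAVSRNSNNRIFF: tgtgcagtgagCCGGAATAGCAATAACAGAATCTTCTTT
TRAJ31 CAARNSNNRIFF: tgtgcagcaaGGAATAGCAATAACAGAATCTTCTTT
TRAJ31 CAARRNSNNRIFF: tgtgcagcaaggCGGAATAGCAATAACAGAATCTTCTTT
TRAJ31 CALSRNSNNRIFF: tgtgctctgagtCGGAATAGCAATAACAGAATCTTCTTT

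All 3 TRAJ21 sequences keep the whole segment and continue with 1 or 2 bases beyond it, and none has an inserted base. Of the TRAJ31 sequences only that of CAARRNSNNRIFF has 1 inserted base. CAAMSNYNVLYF was in 13 samples at 0.0680% ± 0.0455 of functional counts (SD, n = 13) and was written by 8 nucleotide sequences, most often with TRAV14 (12 of 30 clonotypes). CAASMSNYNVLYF was in 13 samples at 0.0405% ± 0.0247, by 9 sequences, most often with TRAV7 (10 of 24). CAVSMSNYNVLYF was in 11 samples, at 0.0399% ± 0.0339. The next most widely found TRAJ21 loops after the first pair, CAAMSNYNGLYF and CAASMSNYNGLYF, each in 12 samples, are their glycine forms, at 0.00447% and 0.00218%.

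The 5 leading TRAJ31 loops were each in 13 samples. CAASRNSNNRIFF was the most abundant at 0.0919% ± 0.0438 (SD, n = 13), from 0.0301% to 0.191%, and was written by 13 nucleotide sequences, most often with TRAV7 (23 of 51 clonotypes). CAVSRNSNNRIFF had 0.0717% ± 0.0623 and 10 sequences, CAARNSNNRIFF 0.0623% ± 0.0408 and 12, most often with TRAV14 (13 of 31), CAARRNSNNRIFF 0.0587% ± 0.0478 and 8, and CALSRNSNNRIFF, most often with TRAV12 (16 of 28), 0.0425% ± 0.0329 and 9. Within a sample, too, TRAJ31 loops were written in more ways. There were 1.16 ± 0.0271 nucleotide clonotypes per loop with TRAJ31 and 1.11 ± 0.0329 with TRAJ21, lower for TRAJ21 in 12 of 13 samples (adjusted p = 0.00342, exact sign-flip permutation).

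Clone sizes of the genes differed by the median, and a difference in concentration did not pass the test. A functional TRAJ21 clonotype had a median of 20.2 ± 7.05 counts (mean of medians, SD, n = 13) and a TRAJ31 clonotype 61.9 ± 14.7. The medians ran from 11 to 37 and from 49 to 93.5, with no overlap (adjusted p = 6.84e-04, exact sign-flip permutation). Without the variant form the TRAJ21 median was 59.9 ± 16.7 and the difference of -1.96 ± 8.68 no longer passed (p = 0.441, adjusted p = 0.477, exact sign-flip permutation). With small 1-mismatch neighbours left out for both genes, the medians were 59.5 and 67.0, and the difference of -7.42 ± 10.1, lower for TRAJ21 in 10 of 13 samples, passed (adjusted p = 0.0395, exact sign-flip permutation). The 10 largest clonotypes held 26.03% ± 6.26 of TRAJ21 and 24.8% ± 7.09 of TRAJ31 counts, the latter the lowest of the 43 J genes. That rank was not taken at equal clonotype numbers, and TRAJ31 ranked 3 of 43 by functional clonotypes. The difference of 1.18 ± 4.68 percentage points (higher for TRAJ21 in 7 of 13 samples) did not pass (adjusted p = 0.525, exact sign-flip permutation), nor did that of 2.86 ± 4.81 without the variant form (higher in 10 of 13, p = 0.0559, adjusted p = 0.0870).

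Clonotypes over 0.1% of a sample's functional counts numbered 61 with TRAJ31 (1.44% of its functional clonotypes) and 29 with TRAJ21 (0.679%, or 1.11% of its 2601 clonotypes without the variant form) in the 13 samples together, against 1.57% over all J genes. These counts were not tested. The largest of each gene at each time point are described, and the 2 top clones of TRAJ31 are printed with J bases in capitals.
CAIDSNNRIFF, 7 months replicate 1: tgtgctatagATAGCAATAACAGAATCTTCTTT
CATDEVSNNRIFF, 5 months replicate 1: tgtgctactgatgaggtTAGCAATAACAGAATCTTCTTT
The first, with TRAV13D-2, held 0.929% of functional counts (5392 counts, 95% Wilson interval 0.904% to 0.954%, counting error only). It had no inserted base, and was in 5 other samples with at most 442 counts. The second, with TRAV8D-1 and 4 inserted bases, held 0.740% (4022 counts) and was in 4 other samples with at most 2 counts. At 1.5 and 3 months the largest TRAJ31 clones were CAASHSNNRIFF (0.391%) and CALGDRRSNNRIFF (0.291%). The largest TRAJ21 clones were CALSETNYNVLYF (0.262%) at 1.5 months, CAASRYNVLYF (0.325%) at 3 months, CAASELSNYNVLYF (0.240%) at 5 months and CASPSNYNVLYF (0.271%) at 7 months, each in a single sample as a nucleotide sequence.

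Out-of-frame junctions were set beside functional ones in inserted, V and J bases. For TRAJ21 they held 2.24 ± 0.421 inserted bases against 2.14, kept 12.005 against 12.03 V bases and 24.9 against 24.8 J bases. For TRAJ31 they held 2.25 ± 0.598 against 2.09, kept 12.5 against 12.6 V bases and 23.3 against 23.01 J bases. None of these 6 differences passed the exact sign-flip permutation test (adjusted p 0.71 to 0.928, n = 13), and with 25 to 57 out-of-frame clonotypes per gene and sample the SD of the difference was 0.451 to 0.998 bases. Small differences may therefore have been missed. Both genes' out-of-frame clonotypes had fewer counts. The log2 median counts were 4.26 ± 0.47 functional and 3.41 ± 0.65 out of frame with TRAJ21, and 5.92 ± 0.32 and 5.06 ± 1.22 with TRAJ31 (SD, n = 13). The differences of 0.85 ± 0.66 and 0.86 ± 1.10 had the same sign in 12 of 13 samples for each gene (adjusted p = 0.00586 for both, exact sign-flip permutation). Among clonotypes of at least 2 counts they were 0.35 and 0.28 and did not pass (adjusted p = 0.401 and 0.0977, exact sign-flip permutation). With samples pooled, germline-form TRAJ21 clonotypes had medians of 58 counts functional and 38 out of frame, and variant-form ones 6 and 5. Out-of-frame clonotypes 1 inserted or deleted base from a functional one of the same sample made up 12.5% of those with TRAJ21 and 16.03% with TRAJ31.

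Over the time course no change in the number of clonotypes with either gene passed the test. In the edgeR fit over the 43 J genes that passed its filter on low numbers, 0 genes were called (0% of those tested) at 3, 5 or 7 months against 1.5 months or at 7 against 3 months, with 0, 0, 0 and 2 genes at an unadjusted p under 0.05, and DESeq2 called 0 as well. TRAJ21 took 5.28% and 5.69% of functional clonotypes in the 1.5-month samples, 5.39% to 5.88% at 3 months, 4.81% and 5.57% at 5 months and 5.08% to 5.59% at 7 months. Its log2 fold change was -0.05 ± 0.09 (SE) at 7 against 1.5 months and -0.13 ± 0.07 at 7 against 3 months (adjusted p = 0.978 and 0.801, edgeR). The mean share of TRAJ21 went from 5.72% ± 0.226 (SD, n = 4) at 3 months to 5.28% ± 0.216 (n = 5) at 7 months, a gap wider than either SD, and without the variant form the means were 3.40% ± 0.102 and 3.36% ± 0.212. TRAJ31 took 5.00% and 5.42%, 5.32% to 5.54%, 5.20% and 5.78%, and 5.21% to 5.92%, with log2 fold changes of 0.09 ± 0.09 and 0.02 ± 0.07 (adjusted p = 0.978 and 0.961, edgeR).

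By counts TRAJ31 stood at 5.14% and 5.80% at 1.5 months, 4.63% to 5.44% at 3 months, 6.08% and 6.82% at 5 months and 5.35% to 6.91% at 7 months. TRAJ21 stood at 3.47% and 3.82%, 2.89% to 3.81%, 2.68% and 3.05%, and 2.96% to 3.65%. Against 1.5 months the groups overlapped, except that both 5-month samples were above both 1.5-month samples for TRAJ31 and below them for TRAJ21. No comparison with 1.5 months passed the exact permutation test over all arrangements (adjusted p 0.430 to 1).

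Of 36 comparisons with 1.5 months, over 6 measures of each gene, 0 passed after adjustment and 4 had an unadjusted exact permutation p under 0.05. The share of TRAJ31 counts in its 10 largest clonotypes was 14.6% and 20.3% at 1.5 months, 17.5% to 25.6% at 3 months, 26.4% and 35.3% at 5 months and 24.2% to 36.1% at 7 months. The 5-month and 7-month samples all lay above the 1.5-month samples, by 13.4 percentage points (exact permutation p = 0.04996, adjusted p = 0.430) and 12.1 points (p = 0.0347, adjusted p = 0.417) with a pooled SD of 4.84. For TRAJ21 the same shares were 16.7% and 27.1%, 19.98% to 24.8%, 19.2% and 35.0%, and 24.0% to 39.1%, and the groups overlapped. These shares were not compared between time points at equal clonotype numbers, and TRAJ31 had 264 to 400 functional clonotypes per sample. Those of all J genes numbered 7998 and 6497 at 1.5 months, 5388 and 4828 at 5 months and 5067 to 6354 at 7 months. The share of TRAJ21 clonotypes out of frame was 9.64% and 9.31% at 1.5 months and 15.1% and 14.1% at 5 months, a difference of 5.09 points (p = 0.00278, adjusted p = 0.10, exact permutation), and without the variant form it was 3.18 points (p = 0.139). Mean inserted bases of TRAJ21 were 1.98 and 2.06 at 1.5 months and 2.20 and 2.30 at 5 months (p = 0.00616, adjusted p = 0.111, exact permutation), and without the variant form the difference was 0.201 against 0.230 (p = 0.0968).

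Leaving out 3 months replicate 3 alone gave 2 adjusted calls, both on TRAJ21. The out-of-frame share at 5 months then had an adjusted p of 0.0353, and CDR3 sharing at 3 months, 62.8% against 56.2%, an adjusted p of 0.00779 (exact permutation). Mean CDR3 length at the later time points differed from 1.5 months by -0.0334 to 0.0329 residues with TRAJ21 and by -0.0433 to -0.0050 with TRAJ31 (pooled SD 0.109 and 0.0722).

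Other J genes resembled the pair only in part. The share of functional clonotypes over the 13 samples followed that of TRAJ21 most closely for TRAJ33 (Spearman's rho 0.604), TRAJ22 (0.555) and TRAJ13 (0.385), and that of TRAJ31 for TRAJ42 (0.385), TRAJ47 (0.385) and TRAJ27 (0.341). The rho between the members of the pair was 0.0659. These shares come from the same libraries and sum to a whole, so the correlations are descriptions. By V partners, the overlap of family shares with TRAJ21 was highest for TRAJ17 (93.5%), TRAJ12 (93.4%) and TRAJ16 (93.4%), and with TRAJ31 for TRAJ34 (92.9%), TRAJ23 (90.4%) and TRAJ26 (90.1%), and TRAJ21 came next for TRAJ31, at 89.9%, rank 4 of 42. From the side of TRAJ21, TRAJ31 ranked 15.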

How the data were processed

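The authors amplified TCRα cDNA of the sorted cells by 5′ RACE, sequenced it, aligned reads to mouse TCR genes and assembled clonotypes with MiXCR, and processed these with VDJtools; the labels name GRCm38 as the build. In their frequency-based correction, clonotypes up to 2 mismatches from a bigger clonotype were removed at a size ratio below 0.05 raised to the number of mismatches. Repeating the correction at 1 mismatch would still drop 2 of 90369 rows. In a second step the authors discarded clonotypes with a stop codon or frameshift, whereas the deposited tables hold such rows. The deposited tables give a raw count per clonotype, and whether it counts reads or molecules is not stated. The deposited fraction of the sample was not used, and the authors' V end and J start positions gave the bases kept and inserted. Positions and germline segments came from GENCODE M21.

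Python 3.11.15 (numpy 2.4.6, pandas 2.3.3) computed all measures and matplotlib 3.10.9 drew the figures. TRAJ21 and TRAJ31 were compared within samples by an exact two-sided sign-flip permutation test over 13 samples (8192 sign patterns), with Benjamini-Hochberg adjustment over 14 measures, of which bases trimmed and kept are the same measure. Functional and out-of-frame junctions were compared likewise over 8 differences. Time points were compared with 1.5 months by a pooled-SD statistic, all 540540 arrangements and the maximum over 3 comparisons, adjusted over 36. Numbers of functional clonotypes per J gene, and per V family of the pair, were tested by the quasi-likelihood method of edgeR 4.0.16 (R 4.3.3) after filterByExpr, with TMM factors. DESeq2 1.42.0 was an alternative. The code was tested on simulated data. Whether samples came from separate mice is not stated, so p-values measure the spread between these samples. Intervals and floors cover counting error only.

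The members and lists were chosen with earlier results of these data known. The V families named as calls are those with an adjusted p under 0.05. Other V families are named as the most frequent, the ends of the V cluster or the ends of the range of ratios. The J genes are those near the pair on the locus, most like it or leading in a ranking. The CDR3s are the 5 in most samples and the largest clone of each time point. The alternatives were other scalings and filters, minimum counts of 2 and 10, weighting by counts or V family, equal depth, a replicate block and each sample left out. Leaving out the TRAJ21 variant or all small 1-mismatch neighbours, and counting trimming from 0, were added after the data were seen.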

Additional observations from a re-analysis of the deposited data

Results flagged for a closer look

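In 6 of 60 groups of 4 or 5 samples a single sample stood apart from the others by Dixon's criterion at 95%, where chance alone gives about 1 in 20. For TRAJ21 these were the mean inserted bases of 3 months replicate 4 (2.20, others 2.11 to 2.12), the share with J-distal V families in 3 months replicate 2 (3.27%, others 1.11% to 1.202%) and in 7 months replicate 4 (3.47%, others 0.301% to 1.03%), and the nucleotide clonotypes per CDR3 in 7 months replicate 1 (1.16, others 1.08 to 1.10). For TRAJ31 these were the top 10 clonotypes' part of the gene's counts in 3 months replicate 1 (25.6%, others 17.5% to 18.4%) and the median counts in 7 months replicate 1 (85, others 49 to 51).

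In-frame clonotypes with a stop codon, which entered no comparison, held 31 counts with TRAJ21 (13 clonotypes in 6 samples) and 337 counts with TRAJ31 (16 clonotypes in 10 samples). Of these, 12 and 10 clonotypes were at or under 3 counts, and the largest held 18 and 119 counts.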

How the results depend on the processing

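Of 279 values recomputed under other settings, 246 kept their direction and their side of the threshold, and of 572 with a sample left out, 540 did. The differences in trimming, CDR3 length, V bases kept, sharing, nucleotide clonotypes per CDR3 and the TRAV4 ratio were among those that kept both under every setting run.

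V families called between the genes were 1 on summed counts and 1 without small 1-mismatch neighbours, in both cases without TRAV9 (log2 ratios -0.64 and -0.39), and 2 to 4 with each sample left out (4 without 5 months replicate 1). Inserted bases differed by 0.222 when weighted by counts. The percent of junctions with no inserted base differed by -1.83 weighted by counts, -0.705 at equal V family weights, -0.536 without the variant form and -0.216 without small 1-mismatch neighbours, and by -0.193 to 0.650 with each sample left out. The percent of a gene's clonotypes out of frame differed by -0.0560 weighted by counts and by -0.255 to 0.663 with a sample left out. The share of all out-of-frame clonotypes differed by -0.999 at 10 or more counts, -2.59 weighted by counts, -1.58 without the variant form and -1.43 without small neighbours, with adjusted p from 0.00171 to 0.0361 in the exact sign-flip permutation test, and by -0.0765 to 0.354 with a sample left out. The median counts differed by -1.96 without the variant form and by -7.42 without small neighbours, which kept the call. J-proximal V families differed by -0.833 to -0.562 points with a sample left out. J-distal V families differed by -0.0245 without the variant form, -0.0326 without small neighbours and -0.152 to 0.230 with a sample left out. The cause of these shifts was not tested.

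Of the functional against out-of-frame differences, 0 passed the exact sign-flip test at 2 or more counts (log2 median counts 0.35 with TRAJ21 and 0.28 with TRAJ31), where those of TRAJ21 in inserted and V bases were 0.0392 and -0.0908. Without out-of-frame clonotypes 1 base from a functional one, J bases kept differed by 0.0946 with TRAJ21 and V bases by -0.0211 with TRAJ31. With a sample left out, V bases differed by -0.127 to 0.153 with TRAJ21 and -0.0890 to 0.136 with TRAJ31, and J bases by -0.290 to 0.0620 with TRAJ21.

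None of the log2 fold changes in J usage that turned sign had passed a test. On summed counts they were -0.098 (TRAJ21) and -0.13 (TRAJ31) at 3 against 1.5 months and 0.0060 (TRAJ21) at 7 against 3 months. For TRAJ21 at 5 against 1.5 months they were 0.019 with non-functional clonotypes kept, 0.020 without the variant form and 0.038 without small neighbours, which also gave 0.049 at 7 against 1.5 months and 0.0027 at 7 against 3 months. For TRAJ31 at 7 against 3 months it was -0.0067 without the variant form. With a sample left out, 5 against 1.5 months gave -0.20 to 0.057 (TRAJ21) and -0.0085 to 0.18 (TRAJ31), 7 against 1.5 months -0.11 to 0.011 (TRAJ21) and 7 against 3 months -0.024 to 0.049 (TRAJ31). Time-course calls numbered 0 to 2 with a sample left out, and 2 only without 3 months replicate 3.

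Same-numbered samples of different groups deviated together in the percent of clonotypes out of frame (correlations 0.535 with TRAJ21 and 0.549 with TRAJ31 over 14 pairs), whereas the other 12 of 14 values had correlations from -0.321 to 0.152. The labels do not say that a number marks a shared animal, litter or day. In fits that added a replicate block, 0 of 43 J genes and 0 of 36 time-course comparisons passed, the out-of-frame share of TRAJ21 at 5 months had an adjusted p of 0.240 in the exact permutation test within blocks, and TRAJ21 at 7 against 1.5 months was at -0.04 on the log2 scale. In-frame clonotypes with a stop codon were not run in place of out-of-frame ones, because there were 13 and 16 of them.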
